A study of Rattus norvegicus with 6 samples.

Results

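The receptor end of the cAMP pathway was described through 7 genes: the Gs-coupled receptor genes Adrb1, Adora2b and Ptger4, the receptor kinase genes Grk5 and Grk6, and the beta-arrestin genes Arrb1 and Arrb2. They were chosen by name, and each matched 1 row of the 32623 genes in the table. The cells were C6, an established rat glioma line, and they were kept for 24 h either in forskolin (FSK), a plant compound that activates adenylyl cyclase directly, or in DMSO, its solvent. Each group had 3 libraries of total RNA, both groups were the same cell line, and the dose of FSK is not given in the sources used here. The labels number the replicates without saying that they were separate cultures, so each p-value reflects the spread among these 6 libraries and that spread may be technical.

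A Gs-coupled receptor that has bound its ligand activates the Gs protein, which in turn activates adenylyl cyclase and raises cAMP. G protein-coupled receptor kinases then phosphorylate the occupied receptor, and beta-arrestins bind the phosphorylated tail, uncouple the receptor from Gs and link it to clathrin-coated pits. Forskolin acts on the cyclase itself and so raises cAMP without a receptor being occupied. Beta-adrenergic receptors on C6 cells are a long-used model of this signalling and of its desensitisation.

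Between 72.1 and 80.0 M counts were assigned to genes per library. The glial genes S100b, Gfap, Vim, Nes and Cd44 each had an FPKM (fragments per kilobase of transcript and per M mapped, as deposited) of at least 1 in all 6 libraries. Of 6 glial genes tested 4 rose and 2 fell with FSK, where 39.4% of all genes tested were called. S100b and Gfap rose (log2 fold changes of 1.84 and 3.46), while Nes and the glial glutamate transporter gene Slc1a3 fell (-0.90 and -1.38). The progenitor glial gene Fabp7 had at most 6 counts in any library. The summed FPKM of 6 microglia and macrophage markers was at most 0.611 in DMSO and 0.700 in FSK libraries, and that of 5 neuron markers at most 1.26 and 0.691. The 4 matched endothelial markers summed to 0.331 to 0.372 FPKM in DMSO and 0.110 to 0.210 in FSK, and the defining genes Cdh5 and Cldn5 had 0 counts in all 6 libraries. Tek and Syt1, the endothelial and neuronal markers called, fell (log2 fold changes of -1.19 and -1.53, edgeR adjusted p = 0.0257 and 0.0495), but of the 6 fits without 1 library each passed in 1, that without FSK replicate 1.

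Of the 7 genes, 5 were expressed in DMSO by the rule used, an FPKM of at least 1 in each of the 3 DMSO libraries. These were Adrb1, Grk5, Grk6, Arrb1 and Arrb2. Adora2b and Ptger4 were not, although both had at least 10 counts in every DMSO library. After FSK, Ptger4 and Arrb2 fell, and the other 5 genes did not pass the test at an adjusted p of 0.05. That is 2 of 7 called, both falls. Of the 14166 genes tested, 39.4% were called, 19.8% as falls and 19.6% as rises, so the share of members called in either direction was no larger than the background. The CPM values (counts per M, scaled by library total and TMM factor) of the 2 groups did not overlap for 4 of the 7, against 53.0% of all genes tested. In these bulk libraries, fewer cells carrying a transcript and less of it per cell cannot be told apart.

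**Figure D1:**
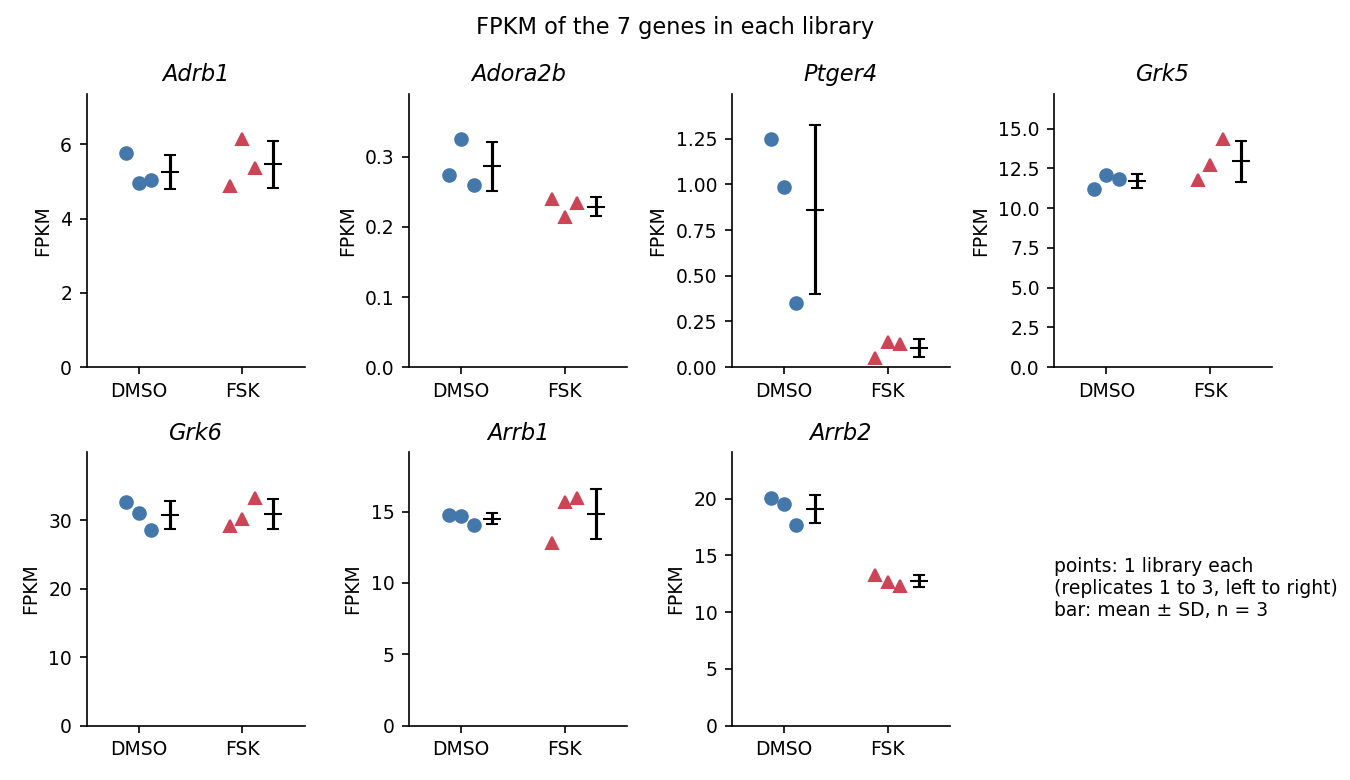
FPKM of each of the 7 genes in DMSO (blue circles) and FSK (red triangles), 1 point per library, with the mean ± SD (n = 3) beside them. Each panel has its own linear axis from 0. Ptger4, Arrb2 and Adora2b are lower in all 3 FSK libraries than in any DMSO library, though Adora2b did not pass the test. The Adrb1, Grk5, Grk6 and Arrb1 groups overlap.

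The RefSeq promoter table (build GRCr8) held 5 of the 7 genes; Arrb1 and Arrb2 had no entry. The windows of Adrb1 and Ptger4, which run from 250 bases before the start to 50 after it, are shown because these are the receptors with the highest level and the largest change among the 7. Capitals mark the 5-base core TGACG of the cAMP response element (CRE, TGACGTCA) on either strand. The full CRE reads the same on both strands and contains the core on each.
Adrb1, GRCr8 chr1:265776853-265777152, plus strand: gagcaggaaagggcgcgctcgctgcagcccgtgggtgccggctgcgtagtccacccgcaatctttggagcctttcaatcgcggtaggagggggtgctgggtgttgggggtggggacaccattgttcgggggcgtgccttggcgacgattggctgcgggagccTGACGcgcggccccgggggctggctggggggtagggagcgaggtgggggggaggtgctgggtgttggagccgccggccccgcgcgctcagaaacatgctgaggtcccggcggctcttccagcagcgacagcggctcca
Ptger4, GRCr8 chr2:56073473-56073772, minus strand: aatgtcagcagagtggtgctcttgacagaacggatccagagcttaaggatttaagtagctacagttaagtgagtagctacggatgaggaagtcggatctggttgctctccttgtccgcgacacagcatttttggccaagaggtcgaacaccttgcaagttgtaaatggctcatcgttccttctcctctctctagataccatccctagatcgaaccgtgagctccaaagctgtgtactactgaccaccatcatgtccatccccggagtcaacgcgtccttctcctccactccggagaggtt
The Adrb1 window held 1 core, on the strand shown, from base -88 to base -84 relative to the start. No core was found in the windows of Ptger4, Adora2b, Grk5 and Grk6, and no full CRE in any of the 5. Among all 33469 promoters of the table, 21.2% held the core and 1.83% the full CRE in a window of this length. GC content was 50.3% in the Ptger4 window and 70.7% in that of Adrb1. The 50 bases after the start of Ptger4 open with atg, the letters of a start codon, and hold no stop codon in that frame. That start may thus be the start of the coding sequence, and the window may not hold the promoter. For Ptger4 the missing core and the GC content therefore describe this window only. A match of letters is a description and not evidence of binding.

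Adrb1 (ENSRNOG00000017002; Rnor_6.0 chr1:277537585-277538985, plus strand) encodes the beta-1 adrenergic receptor, which responds to noradrenaline and adrenaline. It was the most abundant of the Gs-coupled receptor genes described here, and it did not pass the test. Its FPKM was 5.78, 4.96 and 5.03 in DMSO replicates 1 to 3 and 4.88, 6.14 and 5.35 in FSK replicates 1 to 3. The highest and the lowest FPKM both lay in FSK libraries, so the DMSO range fell inside that of FSK. In CPM the groups overlapped too, at 8.23, 6.99 and 6.94 against 7.11, 9.02 and 7.99, but there the lowest value was in DMSO. The log2 fold change, FSK over DMSO, was 0.12 ± 0.14 (SE; edgeR quasi-likelihood test, Benjamini-Hochberg adjusted p = 0.526). The 95% interval of the fold ran from 0.872 to 1.36. The gene model in the table spans 1401 bases, and the length implied by its counts and FPKM was 1438 bases.

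Adora2b (ENSRNOG00000002922; Rnor_6.0 chr10:48569555-48586365, plus strand) encodes the adenosine A2B receptor, the low-affinity Gs-coupled adenosine receptor. It was the lowest of the 7 genes in DMSO, with counts of 38, 50 and 39 in the DMSO libraries against 36, 30 and 35 in the FSK libraries. In CPM this was 0.522, 0.612 and 0.473 against 0.472, 0.422 and 0.460. All FSK values were below all DMSO values, but the nearest pair, DMSO replicate 3 and FSK replicate 1, differed only in the third decimal place. The log2 fold change was -0.25 ± 0.42 (edgeR adjusted p = 0.679), with a 95% interval from -1.22 to 0.72. At this depth neither a fall nor a rise of moderate size could be told from no change.

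Ptger4 (ENSRNOG00000013240; Rnor_6.0 chr2:54952821-54963448, minus strand) encodes EP4, a Gs-coupled receptor for prostaglandin E2. It changed most among the 7 genes, from a low level to nearly none. Its counts were 136, 120 and 43 in the DMSO libraries against 6, 16 and 16 in the FSK libraries, or 1.25, 0.987 and 0.352 FPKM against 0.0501, 0.137 and 0.126. The groups did not overlap, and DMSO replicate 3 was well below the other DMSO libraries. The log2 fold change was -2.90 ± 0.63 (edgeR adjusted p = 0.00758), a level 7.46-fold lower in FSK with a 95% interval from -4.34 to -1.45 on the log2 scale. Of all genes tested, 4.26% were called with a fall of at least 2-fold. Without DMSO replicate 3 the log2 fold change was -3.28 (adjusted p = 0.0048), and over the 6 libraries left out in turn it ran from -3.28 to -2.53 (adjusted p from 0.0048 to 0.0293). On FPKM with limma it was -0.72 with a pseudocount of 1 and -2.12 with one of 0.1 (adjusted p = 0.0157 and 0.00755), since a pseudocount shrinks the change of a gene this low. FSK replicate 1 was under 10 counts, so Ptger4 entered the test through its DMSO level.

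**Figure D2:**
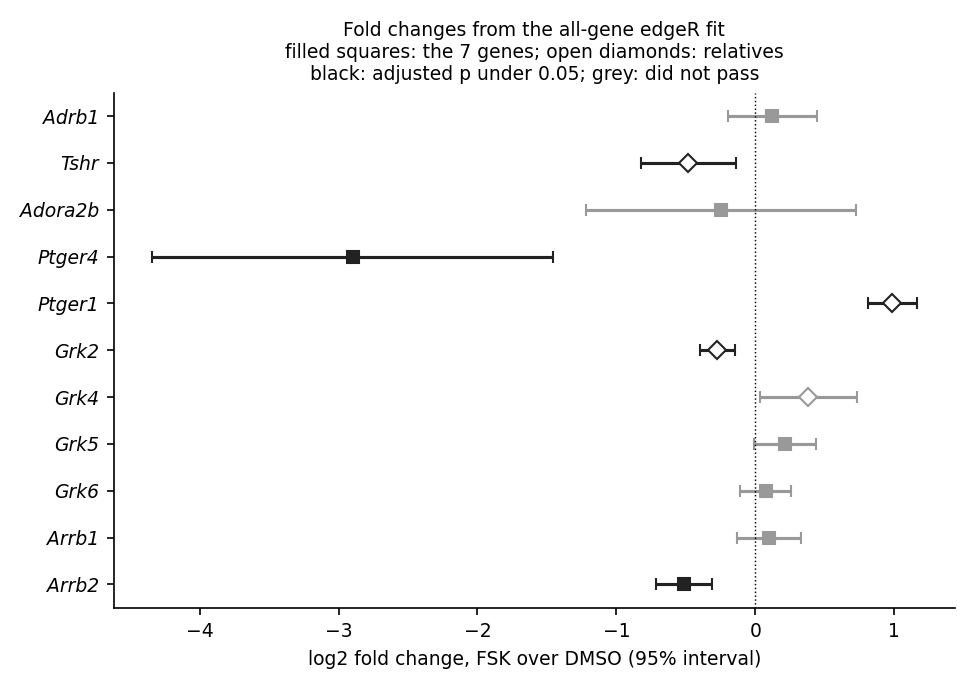
Log2 fold changes, FSK over DMSO, with 95% intervals from the edgeR fit across all genes, for the 7 genes (filled squares) and relatives (open diamonds). Black marks an adjusted p under 0.05. The interval of Ptger4 lies wholly below -1, that of Arrb2 wholly below 0, and those of Adrb1, Adora2b, Grk5, Grk6 and Arrb1 include 0.

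The wider family of Gs-coupled receptors put these levels in context. Of 45 receptor genes listed, 42 had a row in the table and 18 of those had 0 counts in all 6 libraries. Only 14 passed the low-count filter, of which 1 rose, 2 fell and 11 did not pass. The share called was 21.4%, against 39.4% of all genes tested (19.6% as rises and 19.8% as falls). The median log2 fold change of the 14 was -0.17, against -0.01 over all genes tested. Low genes enter the test through the group where they are higher, so these counts do not describe the whole family. The untested receptors had at most 27 counts in any library. By the expression rule, 2 of these receptors were expressed, Adrb1 and Tshr, in DMSO and also in FSK. Tshr, the thyrotropin receptor gene, fell by 0.48 ± 0.15 (adjusted p = 0.0339), but leaving out DMSO replicate 2 or 3 gave an adjusted p of 0.0842 or 0.0918, and leaving out FSK replicate 1 or 2 gave 0.0744 or 0.0939. The receptor that rose was Adcyap1r1, the gene of the PAC1 receptor for the peptide PACAP, from 42, 26 and 28 counts to 84, 154 and 117 (log2 fold change 1.96 ± 0.41, adjusted p = 0.00644). It was named after its values were seen and stayed under an FPKM of 1.

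**Figure D3:**
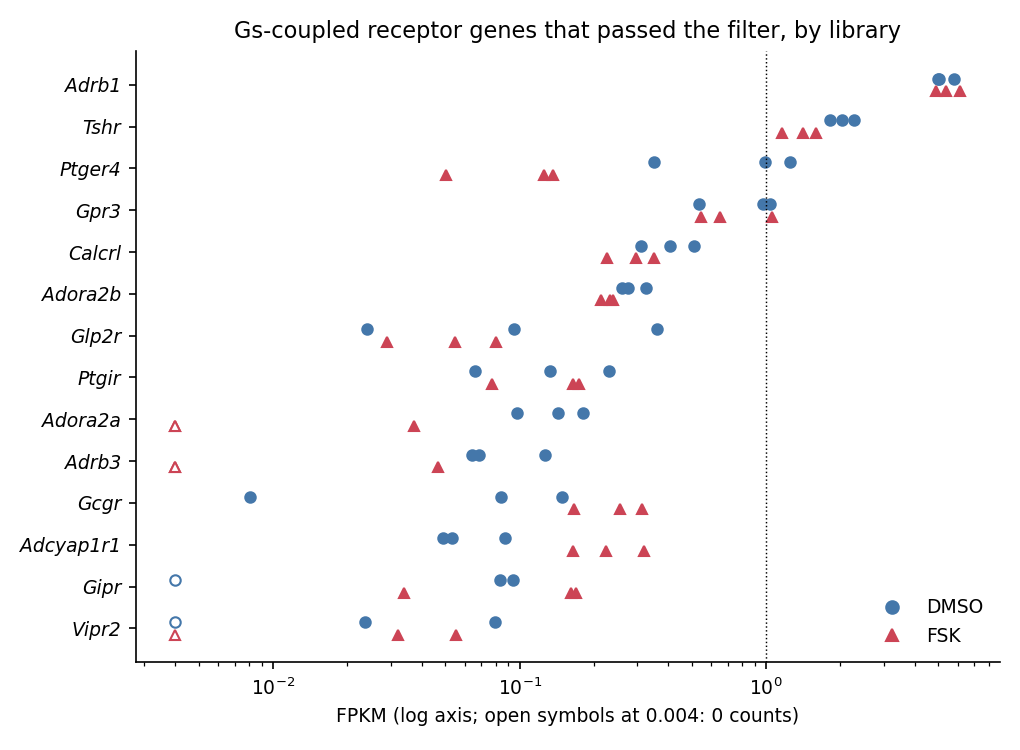
FPKM on a log axis of the 14 Gs-coupled receptor genes that passed the filter, 1 symbol per library (blue circles DMSO, red triangles FSK), with a dotted line at 1. Open symbols stand for 0 counts. Adrb1 lies highest in both groups, Tshr is the other gene with every library above the line, and Ptger4 shifts left in FSK.

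Adrb3, which encodes the beta-3 adrenergic receptor, had counts of 11, 23 and 12 against 0, 8 and 0 after FSK, and did not pass (edgeR adjusted p = 0.192), but it did when FSK replicate 2, the only FSK library with counts, was left out (0.0342). As a share of the summed FPKM of the 42 receptors with a row, Adrb1 was 49.5 ± 2.80% in DMSO and 59.3 ± 3.04% in FSK (SD, n = 3), while that sum ran from 10.0 to 11.2 FPKM in DMSO libraries and from 8.39 to 9.80 in FSK libraries.

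For the ligands of Adrb1, Adora2b and Ptger4, other receptors were also measured. Ptger1, whose product EP1 binds prostaglandin E2 and signals through calcium rather than Gs, was at 9.95, 10.1 and 10.4 FPKM in DMSO and 18.9, 18.5 and 20.1 in FSK. All FSK values lay above all DMSO values, with a log2 fold change of 0.99 ± 0.08 (edgeR adjusted p = 4.54e-05), opposite in sign to that of Ptger4. Ptger2, the gene of the other Gs-coupled prostaglandin E2 receptor, had 0 counts in 5 libraries and 2 in FSK replicate 1, and Ptger3 had 0 in all 6. Adora2a, which encodes the high-affinity Gs-coupled adenosine receptor, had counts of 27, 20 and 37 against 0, 0 and 8 after FSK and did not pass (log2 fold change -3.27 ± 1.21, adjusted p = 0.0628). The call for Adora2a depended on the method: its adjusted p was 0.0282 with DESeq2, 0.0452 and 0.0174 with limma on FPKM (pseudocounts of 1 and 0.1), and 0.0125 with edgeR when FSK replicate 3, the only FSK library with counts, was left out. The Gi-coupled adenosine receptor genes Adora1 and Adora3 had at most 4 counts in any library. Adra1a, the gene of a noradrenaline receptor that signals through calcium, had counts of 14, 12 and 44 in DMSO and 0 in all 3 FSK libraries, and it fell (edgeR adjusted p = 0.0111), though not with limma on log2(FPKM + 1), where the adjusted p was 0.087.

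Of 14 genes that supply or remove prostaglandin E2 and adenosine, 13 were tested. Of those tested, 5 rose, 3 fell and 5 did not pass, with a median log2 fold change of 0.17. The share called was 61.5%, against 39.4% of all genes tested. On the prostaglandin side the inducible cyclooxygenase gene Ptgs2 rose by 1.64 ± 0.10 (adjusted p = 1.34e-05), from 6.20 ± 0.527 to 18.5 ± 2.49 FPKM. Ptges, the lowest of the terminal synthase genes listed, rose by 1.06 ± 0.24 (0.00855), from 1.18 ± 0.132 to 2.34 ± 0.447 FPKM. The other terminal synthase genes listed were more abundant and changed less (log2 fold changes of 0.36 and -0.22). Ptgs1, the gene of the constitutive cyclooxygenase, was far more abundant and fell by 0.40 ± 0.04 (0.000285), from 178.6 ± 1.10 to 128.7 ± 2.84 FPKM. On the adenosine side the gene of the equilibrative nucleoside transporter Slc29a1 fell by 1.46 ± 0.08 (9.4e-06), and Ada, encoding adenosine deaminase, rose by 0.45 ± 0.10 (0.00859), while Adk, encoding adenosine kinase, which also removes adenosine, fell by 0.42 ± 0.05 (0.000459). The summed FPKM of the 14 genes was 437 to 457 in DMSO libraries and 363 to 368 in FSK libraries. These p-values are from the edgeR fit across all genes.

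Grk5 (ENSRNOG00000011439; Rnor_6.0 chr1:282265370-282462605, plus strand) and Grk6 (ENSRNOG00000014615; Rnor_6.0 chr17:9703453-9721574, minus strand) encode membrane-associated receptor kinases of the same subfamily. Neither passed the test. Grk5 had 11.2, 12.1 and 11.8 FPKM in DMSO and 11.8, 12.7 and 14.3 in FSK, with FSK replicate 1 inside the DMSO range. In CPM the FSK values (28.7, 31.4 and 35.9) all lay above those of DMSO (26.8, 28.5 and 27.4), so whether the groups overlapped depended on the scale. The log2 fold change was 0.21 ± 0.10 (edgeR adjusted p = 0.113; 95% interval from -0.01 to 0.44), and leaving out FSK replicate 1 gave an adjusted p of 0.0519, against 0.32 when FSK replicate 3 was left out.

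Grk6 was the most abundant of the 7 genes per length, at 32.6, 31.1 and 28.6 FPKM in DMSO and 29.2, 30.2 and 33.3 in FSK. The groups overlapped almost entirely, with a log2 fold change of 0.07 ± 0.08 (edgeR adjusted p = 0.507). Its 95% interval, from -0.11 to 0.26, was the narrowest of the 7 and left room for a rise of at most 1.20-fold. Within the pair, Grk5 made up 27.6 ± 1.86% of the summed FPKM in DMSO and 29.5 ± 0.707% in FSK (SD, n = 3; exact two-sided permutation test p = 0.2). The ranges overlapped, at 25.6 to 29.2% and 28.7 to 30.1%.

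The other receptor kinases followed no common direction. Grk2, the widely expressed beta-adrenergic receptor kinase gene, was the highest of the family at 51.6, 51.0 and 51.3 FPKM in DMSO and 38.8, 41.4 and 41.3 in FSK, without overlap. It fell by 0.27 ± 0.05 on the log2 scale (edgeR adjusted p = 0.00555). Grk4 was low, at 1.88, 1.70 and 2.02 FPKM in DMSO and 2.53, 2.35 and 2.08 in FSK, and did not pass (log2 fold change 0.38 ± 0.15, adjusted p = 0.0785). Grk3 was listed at 0 in all 6 libraries. The retinal genes Grk1, Sag and Arr3 had at most 14 counts in any library. Together, 6 of the 10 kinase and arrestin genes with a row were tested, of which 2 fell, none rose and 4 did not pass. Their median log2 fold change was 0.09, and the share called was 33.3%, against 39.4% of all genes tested.

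Arrb2 (ENSRNOG00000019308; Rnor_6.0 chr10:57040267-57048134, plus strand) encodes beta-arrestin 2, and it fell. Its FPKM was 20.1, 19.5 and 17.7 in DMSO and 13.3, 12.7 and 12.3 in FSK. All FSK libraries were below all DMSO libraries, with a gap wider than the range inside either group. The log2 fold change was -0.51 ± 0.09 (edgeR adjusted p = 0.00237; 95% interval from -0.72 to -0.31), a level 1.43-fold lower. Leaving out each library in turn gave -0.59 to -0.47 (adjusted p from 0.00183 to 0.0137).

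Arrb1 (ENSRNOG00000030404; Rnor_6.0 chr1:164502389-164593139, plus strand) encodes beta-arrestin 1 and did not pass. It had 14.8, 14.7 and 14.0 FPKM in DMSO and 12.8, 15.7 and 16.0 in FSK. FSK replicate 1 was the lowest of the 6 libraries and the other FSK libraries the highest. The log2 fold change was 0.10 ± 0.10 (edgeR adjusted p = 0.465; 95% interval from -0.13 to 0.33), and without FSK replicate 1 it was 0.20 (adjusted p = 0.0765). The intervals of Arrb1 and Arrb2 did not overlap. Tpbgl lies on the opposite strand within the Arrb1 model, but it had at most 3 counts in any library. Mir326 within Arrb1 and a small RNA model within Grk5 had 0.

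The makeup of the beta-arrestin pool was compared within each library, on the per-length scale. Arrb1 made up 42.4, 43.0 and 44.3% of the summed beta-arrestin FPKM in DMSO and 49.0, 55.3 and 56.6% in FSK. The mean rose by 10.4 percentage points, from 43.2 ± 0.978% to 53.6 ± 4.05%, and the groups did not overlap (n = 3; exact two-sided permutation test p = 0.1, the smallest this design allows). Summed beta-arrestin FPKM was 33.6 ± 1.67 in DMSO and 27.6 ± 1.27 in FSK. On this scale Arrb2 was thus the larger part in every DMSO library, and Arrb1 in FSK replicates 2 and 3. In counts Arrb1 was the larger in every library, at 2977, 3288 and 3107 against 2537, 2731 and 2449 in DMSO. Which gene led in DMSO therefore depended on the scale.

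**Figure D4:**
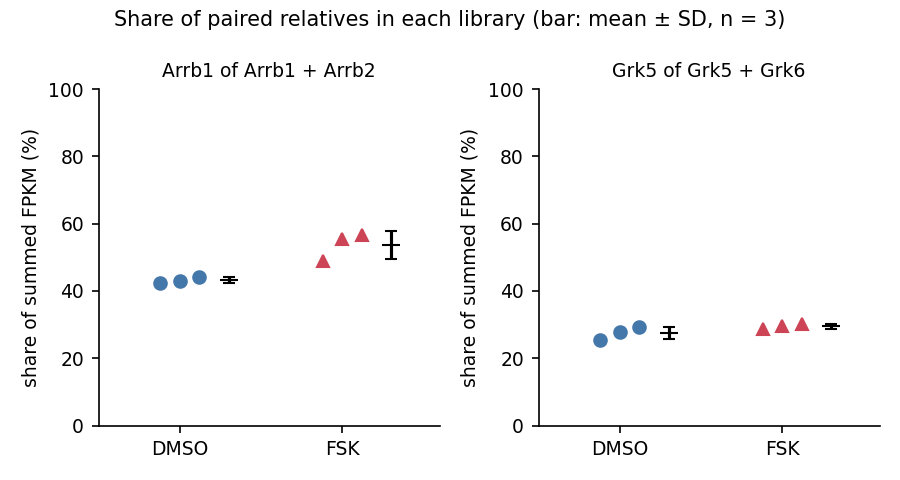
Share of the summed FPKM that each pair's first gene held in each library (percent, axis from 0 to 100), with the mean ± SD (n = 3): Arrb1 of both beta-arrestins, and Grk5 of Grk5 and Grk6. The Arrb1 share lies at 42.4 to 44.3% in DMSO and 49.0 to 56.6% in FSK, whereas the Grk5 ranges overlap.

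Ordered by FPKM in DMSO, Grk6 stood first, followed by Arrb2, Arrb1, Grk5, Adrb1, Ptger4 and Adora2b. No neighbours in that order had overlapping ranges, although Ptger4 in DMSO replicate 3 (0.352) came close to the highest Adora2b value (0.325). In FSK the order of the means was Grk6, Arrb1, Grk5, Arrb2, Adrb1, Adora2b and Ptger4. There the ranges of Arrb1 (12.8 to 16.0), Grk5 (11.8 to 14.3) and Arrb2 (12.3 to 13.3) overlapped and their order could not be told. Arrb2 was above Arrb1 and Grk5 in every DMSO library but had no certain place among them in FSK. In FSK replicate 1 it was the highest of them, at 13.3 FPKM against 12.8 for Arrb1 and 11.8 for Grk5. Ptger4 lay below Adora2b in FSK, without overlap.

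Several protein families act with these receptors. The alpha-arrestins, relatives of the beta-arrestins that link membrane proteins to ubiquitin ligases, had 5 tested genes, of which 1 rose, 3 fell and 1 did not pass (median -0.23). With so few genes the share called was 80.0%, against 39.4% of all genes tested. Txnip, whose product also restrains glucose uptake, fell most (-3.18 ± 0.25, edgeR adjusted p = 4.91e-05), and Arrdc2 rose by 0.56 ± 0.11 (0.0053). Arrdc3 did not pass (0.18 ± 0.13, 0.301). Arrdc1 fell by 0.23 ± 0.07 (0.0348), but it did not pass in 5 of the 6 fits without 1 library, all but that without DMSO replicate 3 (adjusted p up to 0.12).

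Of 9 receptor accessory genes, 3 rose, 3 fell and 3 did not pass (median 0.31; 66.7% called, against 39.4% of all genes tested). The largest change was that of Rgs2, which encodes a regulator that limits G protein signalling. Its counts were 42, 16 and 39 in the DMSO group and 92, 80 and 100 after FSK. It rose by 1.55 ± 0.45 (edgeR adjusted p = 0.0269), but it did not pass in 5 of the 6 fits without 1 library, all but that without DMSO replicate 1 (adjusted p up to 0.0756). Ramp1, which with the calcitonin receptor-like protein forms the receptor for the peptide CGRP, fell by 1.42 ± 0.11 (edgeR adjusted p = 5.11e-05), while the receptor gene Calcrl itself did not pass (-0.42 ± 0.28, 0.27). Ramp2, of the same family as Ramp1, fell by 0.52 ± 0.13 (0.0148), but did not pass without DMSO replicate 2 (0.058) or FSK replicate 2 (0.0508), and a row with more counts overlaps it on the same strand, so counting could have split reads between them. Of the scaffold genes of the NHERF family, Slc9a3r2 fell by 1.15 ± 0.10 (6.61e-05) and Slc9a3r1 rose by 0.52 ± 0.09 (0.00213). Slc9a3r1 was at 135.7 ± 14.0 FPKM in DMSO and 186.1 ± 5.98 in FSK.

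The 26 genes of receptor internalisation and sorting (clathrin, the AP2 adaptor, dynamins, ubiquitin enzymes and retromer) were all tested, of which 7 rose, 7 fell and 12 did not pass, with a median of -0.03. The share called was 53.8%, against 39.4% of all genes tested. Most changes were small. The dynamin genes Dnm3 (-1.77 ± 0.28, edgeR adjusted p = 0.00181) and Dnm1 (-0.60 ± 0.09, 0.0011) fell, and Nedd4, encoding a ubiquitin ligase, fell by 0.49 ± 0.08 (0.00263). Dnm3 was under an FPKM of 1 in every library, with means of 0.508 in DMSO and 0.141 in FSK, while Dnm1 was at 19.0 and 11.9. Vps29, encoding a retromer subunit, rose by 0.62 ± 0.19 (0.0311), but its groups overlapped in FPKM (44.9 to 66.6 in DMSO and 59.6 to 90.5 in FSK). It did not pass without DMSO replicate 1 or 2 or FSK replicate 2 or 3 (adjusted p of 0.0784 to 0.108), nor with limma on FPKM (0.0644 and 0.0629 with pseudocounts of 1 and 0.1). The table has a pair of overlapping rows named Gnas, the gene of the Gs alpha subunit. The row with nearly all counts went from 116.4 ± 3.30 to 93.3 ± 2.56 FPKM (-0.25 ± 0.05, 0.00334), and counting could have split reads between the rows.

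**Figure D5:**
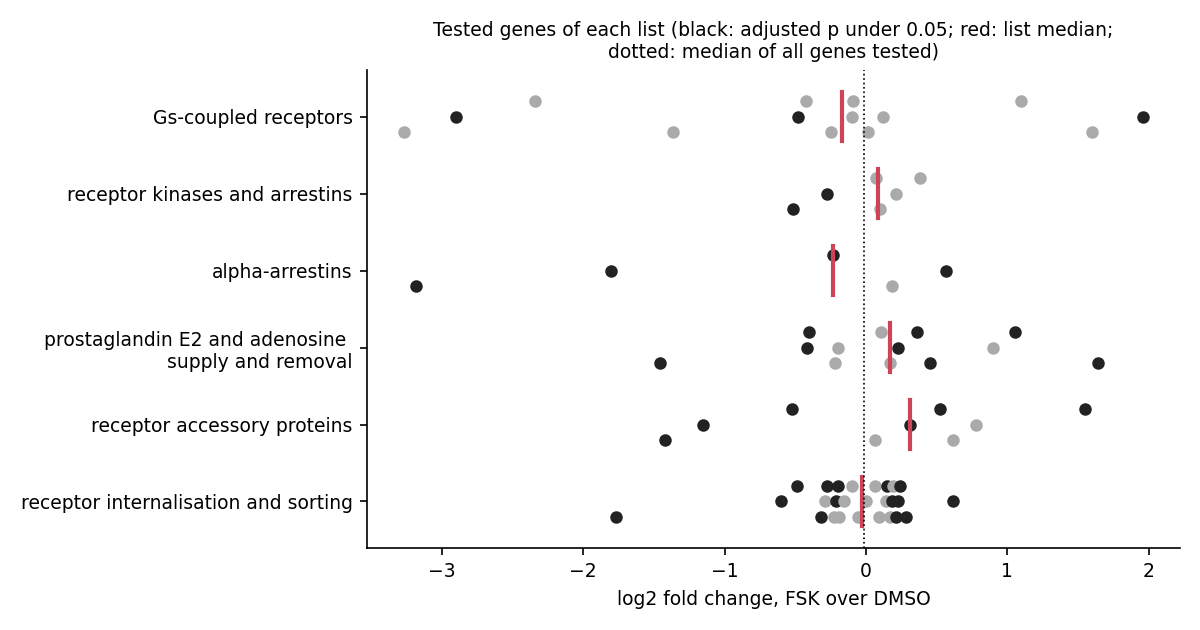
Log2 fold changes, FSK over DMSO, of the tested genes in each list (points; black, adjusted p under 0.05; grey, did not pass; vertical scatter has no meaning), with the list median in red and the median of all genes tested dotted. Among the 6 lists plotted, medians run from -0.23 for the alpha-arrestins to 0.31 for the accessory proteins, and each of these lists holds genes on both sides of 0.

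Genes with patterns most like those of the members were found by the root mean square difference, over the 6 libraries, between log2(CPM + 1) values centred on each gene's mean. The search took in 11503 genes with a mean FPKM of at least 1. For Arrb2 the nearest were Tmem109 (0.0215) and Tapbp (0.0228), with log2 fold changes of -0.53 and -0.49. For Ptger4 they were Igtp (0.104) and Chst5 (0.174), at -0.88 and -0.88 on the log2 scale. These are smaller than the change of Ptger4 itself because adding 1 compresses a gene near 1 CPM. For the other 5 genes the nearest lay at 0.0159 to 0.0268: AABR07039133 for Adrb1, AC094643 for Adora2b, Flrt2 for Grk5, Erf for Grk6 and Gcn1 for Arrb1. None of those genes passed the test. Adora2b, at 0.422 to 0.612 CPM, is compressed too, so its small difference from AC094643 (0.0191) says little about a shared pattern. AC094643 was at 48.4 FPKM in DMSO, with a log2 fold change of -0.08 against -0.25 for Adora2b.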

How the data were processed

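Total RNA of C6 cells was sequenced as 2 groups of 3 libraries. Per the submitters' processing notes, cutadapt, HISAT2, StringTie, edgeR and DESeq2 are named, with the build Rnor_6.0; for the versions, the settings and the strand rule nothing is given in the sources used here. The deposited table holds whole-number counts per gene and FPKM values computed by the authors, both so named in the file headers; FPKM is 0.0001 wherever the count is 0.

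Counts were tested with edgeR 4.0.16 (R 4.3.3): default expression filter by group, TMM factors, quasi-likelihood fit over 14166 genes, FSK against DMSO, no block, Benjamini-Hochberg adjustment over all genes tested, threshold 0.05. The SE is the absolute log2 fold change over the root of the quasi-likelihood F statistic. The 95% intervals use the total degrees of freedom of that test, residual plus prior. Gene lists are described by counts and medians, without a test. Shares of FPKM were compared by exact permutation (scipy 1.17.1). The fit was also run on simulated counts with 200 changed genes, all drawn from genes with a higher mean CPM than Adora2b and Ptger4. The outcome is not given here and does not bear on genes that low. No library was a copy of another: chi-square over genes between replicates was 30.4 to 56.0 times its degrees of freedom.

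Genes named are the 7 members, relatives in the receptor, kinase, arrestin and Gs alpha lists with an FPKM of at least 1 in all 3 libraries of a group, up to 4 called genes of each other list with the largest changes, and the 2 genes nearest in pattern; Adcyap1r1, Adrb3, Adora2a, Ptger2, Ptger3, Calcrl, Slc9a3r1, Adra1a, Ptgs1 and Adk were named after their values were seen. 1 receptor gene is not reported here. Members and lists were chosen with earlier results of these data known. Alternatives were DESeq2 1.42.0 and its size factors, upper-quartile factors, no filter, a minimum mean FPKM of 1, limma 3.58.1 on log2(FPKM + 1) and log2(FPKM + 0.1), the replicate number as a block, and each library left out in turn. RefSeq sequences are on GRCr8, a later build than that of the gene positions; protein sequences were not used here.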

Additional observations from a re-analysis of the deposited data

How the results depend on the processing

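All 7 genes kept their direction and their side of the threshold in every alternative that gave a value: 14 for each, but 13 for Ptger4 and Adora2b, which a minimum mean FPKM of 1 leaves out. Over these, the adjusted p ran from 4.36e-05 to 0.0373 for Ptger4, from 2.43e-06 to 0.0137 for Arrb2 and from 0.0519 to 0.32 for Grk5. All genes called numbered 5576, with 4245 to 5405 without 1 library and 4325 to 6226 in the other alternatives. The shares of Arrb1 and Grk5 kept their sign, with differences of 8.95 to 12.7 and 0.877 to 2.70 percentage points without 1 library. The exact test of these shares could not reach 0.05 with 3 libraries against 3 (smallest p 0.1), nor with 2 against 3. Expression in DMSO took in 7 genes at an FPKM threshold of 0.1 and 4 at a threshold of 5.

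Same-numbered libraries did not deviate together (correlations -0.10, 0.00 and -0.13), so the numbers were not taken as pairs. With the replicate as a block Ptger4 had a log2 fold change of -2.79 (adjusted p = 0.0373), and 4325 genes were called in all. Of the other named genes, 5 that passed without the block did not pass with it: Arrdc1 (adjusted p = 0.0815), Ramp2 (0.0533), Adra1a (0.0549), Tek (0.0532) and Syt1 (0.072). Syt1 also did not pass with DESeq2 size factors (0.0502), with no filter (0.0587) or with limma on log2(FPKM + 1) (0.0578). The Gnas row with few counts changed sign without DMSO replicate 1 (0.0999) and without FSK replicate 1 (0.127), neither past the threshold; the cause was not tested. Depth limits Adora2b and Ptger4, which had at most 136 counts in any library.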
